A study of Mus musculus with 6 samples.

Results

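The genes for 7 secreted proteins of the mineralised matrix of dentin and bone were followed in the inner enamel epithelium (IEE) of the mandibular first molar (MM1) of the mouse. They were *Dspp*, *Dmp1*, *Ibsp*, *Spp1*, *Mepe*, *Bglap* and *Bglap2*, taken by symbol from an expression table of 18152 genes, and each symbol had 1 row. *Dspp*, *Dmp1*, *Ibsp*, *Spp1* and *Mepe* encode the small integrin-binding ligand, N-linked glycoproteins, acidic phosphoproteins that bind calcium and, through an RGD motif, integrins. *Dspp* encodes dentin sialophosphoprotein, which is cut into the most abundant non-collagenous proteins of dentin, and *Bglap* and *Bglap2* encode osteocalcin, a small calcium-binding protein. Odontoblasts and osteoblasts, which arise from mesenchyme and lay down collagen I, are the known main producers of this matrix. Young ameloblasts, the enamel-forming cells that arise from the IEE, are also known to make *Dspp* for a short time, and osteoclasts and macrophages are known to make *Spp1*.

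Both groups were mouse embryos at E18.5 on a C57BL/6J background and carried floxed *Kdf1* alleles. The control group, called WT in the column names of the expression values, had the genotype *Kdf1 fl/fl* and gave 3 libraries. The cKO group had the genotype *K14-Cre;Kdf1 fl/fl* and gave 3 libraries. Its Cre recombinase, driven by the keratin 14 promoter, removes *Kdf1* from epithelium, while mesenchyme keeps the gene. The IEE was cut from sections by laser capture, so that cells along the border of the captured area can be included, and the sources do not give the number of embryos behind a library. The labels call the 3 libraries of a group biological replicates.

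Library totals ran from 14713918 to 16675133 estimated counts, and a count of 0 allowed up to 3 counts, which was 0.182 to 0.198 CPM (counts scaled to an equal library total). This limit covers counting error only. *Kdf1* had 52.5, 44.3 and 52.7 CPM in replicates 1, 2 and 3 of the control group and 0, 0.0629 and 0 CPM in the cKO group, as the labels say. The epithelial keratin gene *Krt14* was present in every library, at 1121 to 2315 CPM in control mice and 399 to 811 CPM in cKO mice. *Col1a1*, the gene of a collagen I chain that odontoblasts and osteoblasts make, was also high in every library, at 2062 to 12960 and 4368 to 7036 CPM. A transcript known from mesenchymal cells was therefore measured beside one of epithelium, and which cells it came from was not tested. In such bulk samples fewer cells of a type and less RNA per cell cannot be told apart.

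In the RefSeq annotation of GRCm38.p6, the genes lie in 2 groups. On chromosome 5 the order is *Dspp*, *Dmp1*, *Gm31048*, *Ibsp*, *Mepe* and *Spp1*, so that 5 of the genes lie side by side with 1 other gene among them. On chromosome 3 the order is *Bglap3*, *Gm21956*, *Bglap2*, *Gm6821* and *Bglap*, where *Bglap3* is a close copy of the osteocalcin genes. The 250 bases before the start are shown for *Spp1*, the chromosome 5 gene that was higher in every cKO library, for *Ibsp* and *Dmp1* of the same group, whose values overlapped between genotypes, and for *Bglap* of the chromosome 3 group, 5′ to 3′ on the strand of the gene. Capitals mark 3 short motifs, namely the RUNX core ACCACA, the CCAAT box and the TATA box TATAAA, each searched on both strands.

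*Spp1*, chr5:104434861-104435110, plus strand: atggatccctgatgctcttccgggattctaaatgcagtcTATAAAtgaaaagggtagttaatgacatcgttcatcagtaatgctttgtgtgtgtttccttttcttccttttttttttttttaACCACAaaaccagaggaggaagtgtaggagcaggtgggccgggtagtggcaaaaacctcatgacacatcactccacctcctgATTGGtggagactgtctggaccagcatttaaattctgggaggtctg
*Ibsp*, chr5:104299037-104299286, plus strand: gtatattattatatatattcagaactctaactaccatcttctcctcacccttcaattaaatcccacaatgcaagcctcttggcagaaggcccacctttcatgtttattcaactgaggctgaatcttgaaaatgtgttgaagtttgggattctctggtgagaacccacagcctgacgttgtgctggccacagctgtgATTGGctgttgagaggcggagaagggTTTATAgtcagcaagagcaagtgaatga
*Dmp1*, chr5:104197325-104197574, plus strand: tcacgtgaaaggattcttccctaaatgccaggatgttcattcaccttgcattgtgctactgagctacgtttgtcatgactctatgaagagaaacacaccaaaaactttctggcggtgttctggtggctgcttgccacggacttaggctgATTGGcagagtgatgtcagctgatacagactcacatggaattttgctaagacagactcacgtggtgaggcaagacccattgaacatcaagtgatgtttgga
*Bglap*, chr3:88384467-88384716, minus strand: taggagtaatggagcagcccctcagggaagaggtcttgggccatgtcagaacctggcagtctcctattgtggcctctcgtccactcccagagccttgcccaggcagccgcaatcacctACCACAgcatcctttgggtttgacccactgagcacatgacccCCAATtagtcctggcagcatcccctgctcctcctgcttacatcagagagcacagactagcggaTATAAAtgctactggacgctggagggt

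The CCAAT box was present in the windows of all 5 genes with a RefSeq window, which are the 4 above and *Mepe* at chr5:104325079-104325328, and in 33.8% of the 32851 windows of all genes. ACCACA, the core letters that RUNX factors such as *Runx2* bind, lay 128 to 123 bases before the start of *Spp1* and 132 to 127 bases before that of *Bglap*. It occurred 2 times in the *Mepe* window, was not found in those of *Ibsp* and *Dmp1*, and was present in 14% of all windows. TATAAA lay 27 to 22 bases before the start of *Bglap* and 28 to 23 bases before that of *Ibsp*, there on the opposite strand. In *Spp1* it lay farther away, at 211 to 206 bases, and in *Mepe* at 173 to 168 bases on the opposite strand. It was not found in the *Dmp1* window and was present in 12.4% of all windows. Such matches are a description of letters and not of binding. *Dspp* and *Bglap2* have no entry among the windows.

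Levels of different genes were compared as TPM, which scales reads by transcript length and then by library. In control mice the mean was highest for *Dspp* at 793 ± 570 TPM, followed by *Bglap* at 488 ± 355, *Bglap2* at 164 ± 114, *Dmp1* at 145 ± 114, *Ibsp* at 106.5 ± 15.6, *Spp1* at 51.1 ± 20.6 and *Mepe* at 0.0267 ± 0.0462 TPM (SD, n = 3). The ranges over the 3 libraries overlapped for neighbours in this order, except that the lowest value of *Ibsp* (90.3 TPM) lay above the highest of *Spp1* (74.6 TPM) and that *Mepe* lay below the others. Within each control library, however, *Dspp* lay above *Bglap* and *Bglap* above *Bglap2*. In cKO mice the order was *Spp1* at 795 ± 788, *Ibsp* at 232 ± 126.5, *Bglap* at 194 ± 161, *Bglap2* at 80.2 ± 72.3, *Dspp* at 73.5 ± 93.8, *Dmp1* at 51.4 ± 30.2 and *Mepe* at 1.13 ± 1.5 TPM (SD, n = 3). Here the ranges of all neighbours but *Mepe* overlapped. *Dspp* thus moved from the first to the fifth place in the order of means and *Spp1* from the sixth to the first. Among all 18152 genes ranked by TPM, *Dspp* stood at rank 701, 156 and 116 in the control libraries and at 10405, 4973 and 770 in the cKO libraries. *Spp1* stood at rank 4050, 2294 and 4367 in control and at 84, 821 and 236 in cKO libraries.

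**Figure D1:**
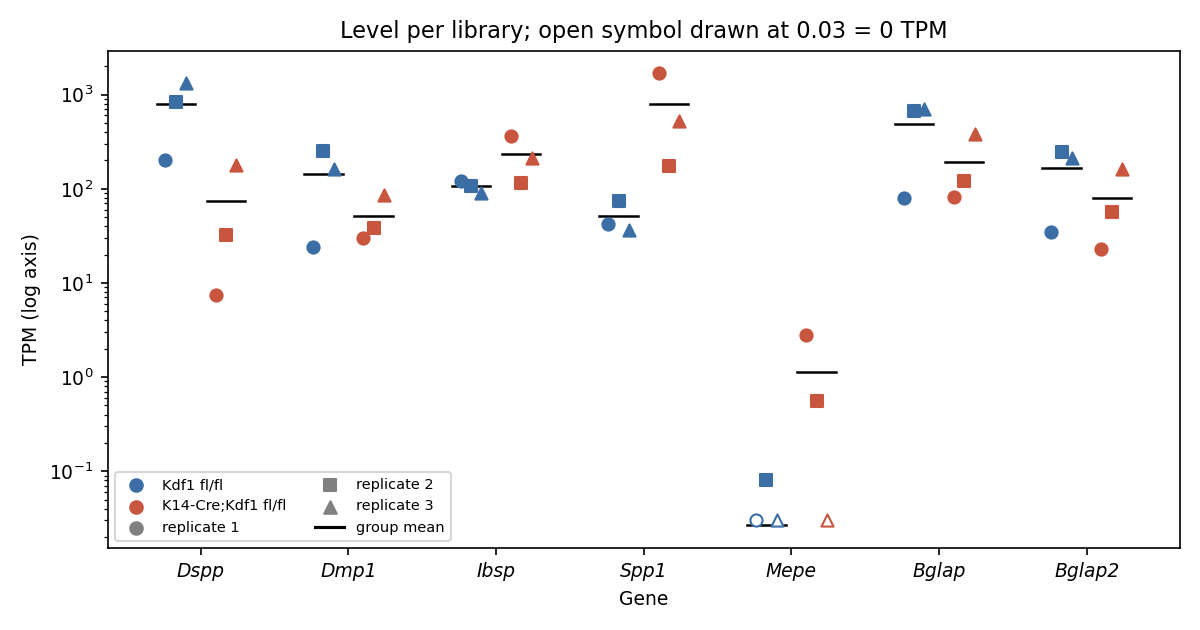
The vertical axis gives the level of each of the 7 genes in TPM on a log scale, with a symbol for each of the 3 replicates of a group and a black line for the group mean. *Dspp* was lower and *Spp1* higher in all 3 cKO libraries than in any control library, and the groups overlapped for the other 5 genes.

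The groups were compared on the estimated counts by the quasi-likelihood test of edgeR over the 14131 genes that passed the filter on low counts. The criterion was a Benjamini-Hochberg adjusted p no higher than 0.05 together with a log2 fold change no smaller than 1 in size. *Mepe* was too low to enter the test. None of the other genes passed (0 of 6), where 0.432% of all genes tested did, 0.142% on the higher and 0.29% on the lower side. At an unadjusted p no higher than 0.05 with the same fold criterion, 3 of 6 passed (*Dspp*, *Ibsp* and *Spp1*), where 9.71% of all genes tested did. DESeq2 with Benjamini-Hochberg adjustment called the same 3 of 6, where 6.94% of 14127 genes were called, 5.05% higher and 1.88% lower. In the edgeR fit that took replicate numbers as pairs (the replicate block), 1 of 6 passed (*Dspp*), where 6.09% of all genes tested did, 4.16% higher and 1.92% lower. This pairing was read from these same data and is not stated in the sources, so p values with the block may be too small. The median log2 fold change was −1.17 over the 6 genes and 0.00 over all genes tested. The groups did not overlap for *Dspp*, on the lower side as for 16.2% of all genes tested, and for *Spp1*, on the higher side as for 14.5%.

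**Figure D2:**
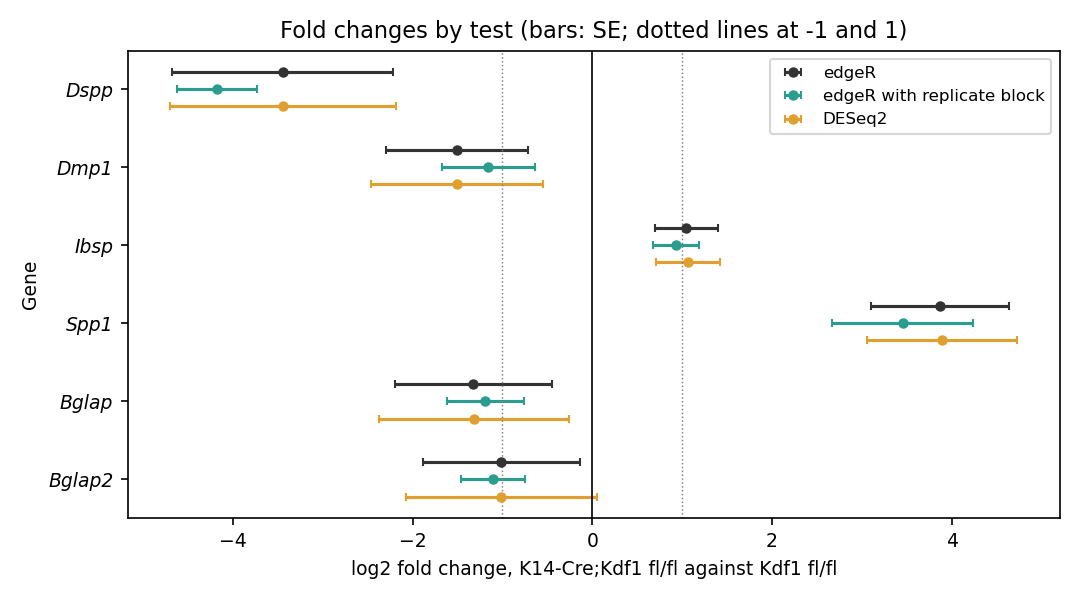
The horizontal axis gives the log2 fold change of cKO against control mice for the 6 genes tested, with bars for the SE, by edgeR, by edgeR with the replicate block and by DESeq2. *Dspp* lies between −4.18 and −3.44, *Spp1* between 3.46 and 3.9, and the bars of *Dspp* are narrowest with the block.

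*Dspp* (gene identifier 666279) had 484, 1932 and 3488 CPM in replicates 1, 2 and 3 of the control group. In the cKO group it had 16.0, 76.5 and 449 CPM. Every cKO library lay below every control library, although replicate 3 of the former and replicate 1 of the latter were close. The means were 1968 ± 1502 and 180 ± 234 CPM (SD, n = 3), a 10.9-fold lower level with a log2 fold change of −3.45 (SE 1.23, 95% interval −6.36 to −0.54). The adjusted p was 0.152 by edgeR, 0.0484 by DESeq2 and 0.00957 by edgeR with the replicate block, where the log2 fold change was −4.18 (SE 0.45). Without replicate 3 of the cKO group the log2 fold change was −5.41 (edgeR, adjusted p = 0.0572), and without replicate 3 of the control group it was −2.78 (edgeR, adjusted p = 0.393). *Dspp* also varied widely among libraries of 1 group. Its highest CPM was 7.2 times its lowest in control and 28.0 times in cKO libraries, and only 0.388% and 0.0517% of 11598 genes with a mean of at least 5 CPM had a wider log2 range.

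Summed over their list, the ameloblast markers were low in the same libraries as *Dspp*. *Amelx*, the gene of the enamel protein amelogenin, had 1244, 4584 and 10700 CPM in control and 2.59, 51.8 and 224 CPM in cKO libraries, and so followed *Dspp* library by library. *Ambn*, another of these markers, overlapped between the groups, at 156.1, 738.6 and 1649 CPM in control and 87.3, 166 and 253.1 CPM in cKO libraries. In 4 markers every cKO library lay below every control library, as for 16.2% of all genes tested. The summed level of the 10 markers was 5200 to 18780 CPM in control and 1924 to 3346 CPM in cKO mice, and all 8 that could be tested had a lower mean in the latter, as 7139 of all 14131 genes tested had. *Amtn* and *Klk4*, markers of later ameloblasts, stayed at or below 1.57 and 0.969 CPM in every library. None of the 8 passed edgeR's criterion, 6 reached an unadjusted p of 0.05 or less, 3 passed by DESeq2 and 5 with the replicate block. Over all genes tested these shares were 0.432%, 24.5%, 6.94% and 6.09%. The summed level of the 16 dental papilla and odontoblast markers overlapped between the groups, at 3278 to 15780 and 9479 to 10180 CPM, much of it from *Col1a1*. Gene by gene, however, 12 of the 16 were higher and 4 lower on the mean, with a median log2 fold change of 1.49. Every cKO library lay above every control library in 8 of them and below in 0, as for 14.5% and 16.2% of all genes tested. The 12 dental epithelium markers summed to 11420 to 16910 and 7500 to 12260 CPM, which overlap. *Shh*, 1 of them, was highest in replicate 3 of the cKO group, at 1753 CPM. On the mean 9 were lower and 3 higher, with a median log2 fold change of −0.47. In 5 every cKO library lay below every control library and in 0 above, as for 16.2% and 14.5% of all genes tested. On the lower side 1 passed edgeR's criterion, 2 by DESeq2 and 2 with the replicate block, where 0.29%, 1.88% and 1.92% of all genes tested did. The part of these cells in the *Dspp* level was not tested.

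The genes whose log2 CPM was most like that of *Dspp* over the 6 libraries were *Snap91* (Pearson r = 0.998), *Mmp20* (r = 0.995) and *Tmem151a* (r = 0.993), and 108 of 11592 genes exceeded 0.95. These values describe 6 libraries that differ in genotype. *Mmp20*, an enamel protease that ameloblasts make and that can cut dentin sialophosphoprotein, had 26.9, 93.3 and 207 CPM in control and 0.253, 2.01 and 11.4 CPM in cKO libraries. Its log2 fold change was −4.59 (SE 1.19), with an adjusted p of 0.0884 by edgeR, 0.0141 by DESeq2 and 0.00578 by edgeR with the replicate block.

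*Dmp1* (gene identifier 13406), which encodes the dentin matrix acidic phosphoprotein of odontoblasts and osteocytes, had 34.5, 343 and 250.4 CPM in the control libraries. The cKO libraries had 38.6, 54.7 and 127.5 CPM. Replicate 1 was lowest in both groups, and the lowest value of all was that of a control library. The log2 fold change of −1.51 (SE 0.79, 95% interval −3.37 to 0.36) did not pass the criterion (edgeR, adjusted p = 0.283). It ran from −2.16 without replicate 3 of the cKO group to −0.96 without replicate 2 of the control group. Within the control group the highest CPM was 9.93 times the lowest, and 0.207% of genes had a wider log2 range. *Marveld1* (r = 0.995), *Cpz* (r = 0.988) and *Mapt* (r = 0.986) were most like it over the 6 libraries.

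*Bglap* (gene identifier 12096) had 9.86, 77.0 and 94.2 CPM in control libraries. It had 9.18, 14.3 and 49.0 CPM in cKO libraries. *Bglap2* (gene identifier 12097) had 4.21, 27.6 and 27.0 CPM in control and 2.47, 6.36 and 20.3 CPM in cKO libraries. For both genes replicate 1 was low in both groups and the groups overlapped. The log2 fold changes were −1.32 (SE 0.88, 95% interval −3.39 to 0.75) for *Bglap* and −1.01 (SE 0.87, 95% interval −3.08 to 1.05) for *Bglap2*, and neither passed the criterion (edgeR, adjusted p = 0.391 and 0.508). The intervals include 0 as well as differences larger than the fold criterion. *Phex*, an endopeptidase of odontoblasts and osteoblasts known to act on peptides of this protein family, was among the 3 genes most like *Bglap* (r = 0.983), beside *Tmem126a* (r = 0.992) and *Uap1* (r = 0.982). For *Bglap2* these were *Uap1* (r = 0.997), *Ccdc194* (r = 0.992) and *Bcan* (r = 0.990).

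The split of reads between the osteocalcin genes is uncertain, because their transcripts are nearly alike. In GENCODE M21 on GRCm38 a *Bglap* transcript of 440 bases and a *Bglap2* transcript of 471 bases were 98.6% identical over 440 aligned bases and shared a run of 241 bases. Of all 50-base windows of that *Bglap* transcript, 74.7% also occurred in that of *Bglap2*, against 20.5% in that of *Bglap3*. The deposited values carried this overlap, since the estimated counts of *Bglap* and *Bglap2* were not whole but summed to whole numbers within 0.005 in 6 of 6 libraries, at 224, 1728, 1918, 184, 328 and 1052. The authors' estimate gave *Bglap* 69.9%, 73.6% and 77.7% of this sum in control libraries and 78.6%, 69.1% and 70.7% in cKO libraries. The counts of *Bglap3* were whole and low, at 10, 28 and 30 in control and 5, 25 and 27 in cKO libraries. Summed into 1 feature, *Bglap* and *Bglap2* differed by −1.24 on the log2 scale (SE 0.87, adjusted p = 0.418 by edgeR).

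*Spp1* (gene identifier 20750), which encodes osteopontin, had 28.5, 47.3 and 26.2 CPM in control libraries. In cKO libraries it had 1017, 115.6 and 364 CPM. All 3 values lay above those of the control group, and replicate 1 was the highest by far. The means were 34.01 ± 11.6 and 499 ± 466 CPM (SD, n = 3), a 14.7-fold higher level with a log2 fold change of 3.87 (SE 0.77, 95% interval 2.06 to 5.69). The adjusted p was 0.0656 by edgeR, 0.0507 by edgeR with the replicate block and 0.000162 by DESeq2. Without replicate 1 of the cKO group the log2 fold change was 2.84 (edgeR, adjusted p = 0.107). Its highest CPM was 1.80 times the lowest in control and 8.80 times in cKO libraries. The genes most like *Spp1* were *Abca1* (r = 0.998), *Sult1a1* (r = 0.996) and *Cebpd* (r = 0.994).

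Summed osteoclast markers were also higher in every cKO library than in any control library, and summed macrophage markers were higher on the mean but overlapped between the groups. The summed level of 11 osteoclast markers was 127, 120 and 76.7 CPM in control and 1382, 311 and 243 CPM in cKO libraries, and that of 12 macrophage markers was 45.3, 106.2 and 43.8 against 301, 149 and 92.4 CPM. For both lists replicate 1 of the cKO group was highest, as for *Spp1*, but replicate 2 exceeded replicate 3, unlike *Spp1*. All 10 osteoclast markers tested and all 12 macrophage markers had a higher mean in cKO mice, as 6992 of all 14131 genes tested had. None passed edgeR's criterion, 8 and 8 reached an unadjusted p of 0.05 or less, 8 and 6 passed by DESeq2, and 4 and 1 passed with the replicate block. The shares of all genes tested were 0.432%, 24.5%, 6.94% and 6.09%. All 9 endothelium markers also had a higher mean in cKO mice, and their sum too was highest in replicate 1 of that group. The osteoclast protease gene *Ctsk* had 22.4, 29.3 and 14.2 CPM in control and 279, 77.3 and 57.3 CPM in cKO libraries. *Dcstamp*, needed for the fusion of osteoclasts, reached at most 4.11 CPM. The part of these cells in the *Spp1* level was not tested.

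**Figure D3:**
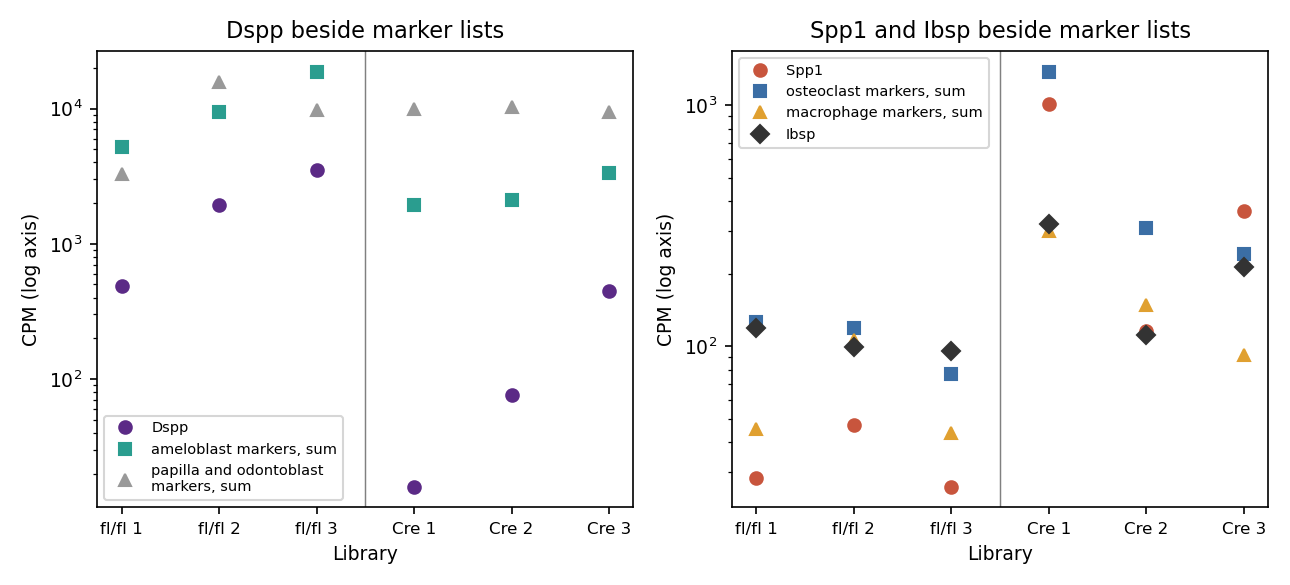
Both panels give CPM on a log axis for each library, with replicates 1 to 3 of control mice (fl/fl) left of the line and of cKO mice (Cre) right of it. The left panel sets *Dspp* beside the summed ameloblast and the summed papilla and odontoblast markers, and the right panel sets *Spp1* and *Ibsp* beside the summed osteoclast and macrophage markers, which peak in the same cKO library at 1382 and 301 CPM.

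*Ibsp* (gene identifier 15891) encodes bone sialoprotein, which is known to start the growth of mineral crystals and to be made by osteoblasts. It had 119, 99.8 and 95.3 CPM in control libraries and 324, 111 and 214 CPM in cKO libraries. The control values lay close together, and replicate 2 of the cKO group lay among them, below replicate 1 of the control group. The log2 fold change was 1.05 (SE 0.35, 95% interval 0.22 to 1.87), with an adjusted p of 0.136 by edgeR, 0.0756 by edgeR with the replicate block and 0.0262 by DESeq2. Without replicate 1 of the cKO group it was 0.66 (edgeR, adjusted p = 0.261). Of the 6 genes tested *Ibsp* was the steadiest in control mice, where 42.5% of genes had a wider log2 range. The genes most like it were *Tmem176b* (r = 0.995), *Nudt13* (r = 0.993) and *Ptpn2* (r = 0.993).

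*Mepe* (gene identifier 94111), which encodes a phosphoglycoprotein of osteocytes and odontoblasts, was close to absent. It had 0, 1 and 0 counts in control and 33, 7 and 0 counts in cKO libraries. Counts came mainly from replicate 1 of the cKO group, and replicate 3 of that group had none. The summed counts of 40 and 1 gave a ratio of 41.2 relative to library size, with an exact 95% interval of 6.98 to 1670 that covers counting error only and not the spread between libraries.

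Within the chromosome 5 group the make-up of the summed TPM differed between the genotypes. *Dspp* took 51.6%, 66.1% and 82.3% of the sum in control libraries and 0.352%, 8.86% and 18.0% in cKO libraries. *Spp1* took 10.9%, 5.85% and 2.23% against 80.5%, 48.4% and 52.3%. The shares of these genes did not overlap between the groups, whereas those of *Dmp1* (6.16% to 19.6% and 1.42% to 10.6%) and *Ibsp* (5.56% to 31.3% and 17.6% to 32.0%) did. The sum itself overlapped, at 388, 1275 and 1623 TPM in control and 2089, 364 and 1006 TPM in cKO libraries. Shares of 1 sum are tied to each other, so that a lower share of *Dspp* raises the others.

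**Figure D4:**
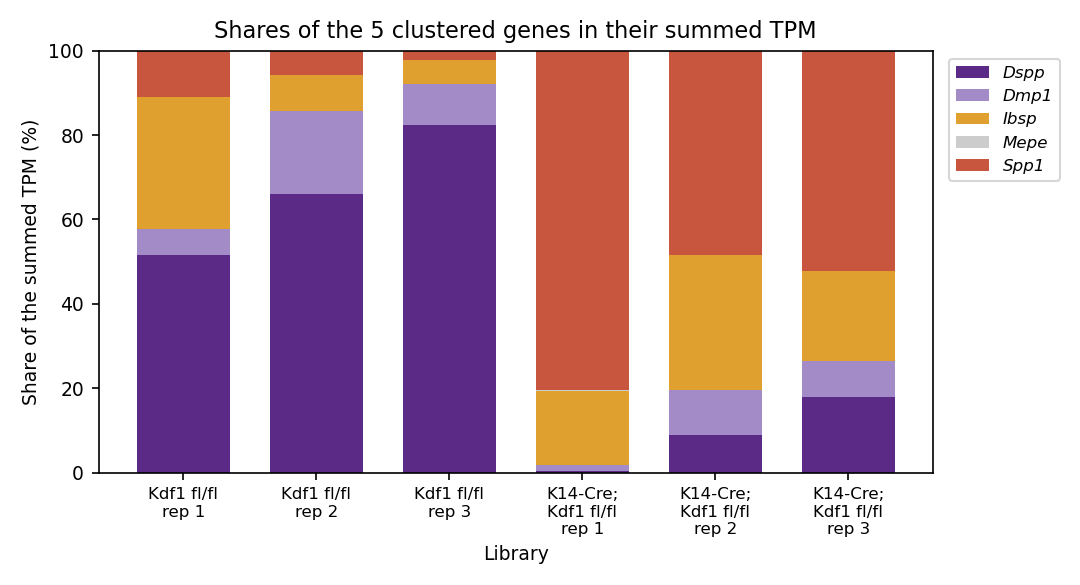
Stacked bars give the share of each of the 5 chromosome 5 genes in their summed TPM, in percent, for each of the 6 libraries. *Dspp* holds 51.6% or more of every control bar, and *Spp1* holds 48.4% or more of every cKO bar.

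Ratios of TPM within a library, chosen after their values were seen and not tested, set the genes against each other without regard to library scaling. *Dspp* per *Dmp1* was 8.38, 3.36 and 8.32 in control and 0.248, 0.834 and 2.10 in cKO libraries. *Dspp* per *Bglap* was 2.54, 1.25 and 1.88 against 0.0894, 0.265 and 0.477. Neither ratio overlapped between the groups, so *Dspp* was lower relative to both other genes. *Dmp1* per *Bglap* overlapped, at 0.303, 0.372 and 0.226 against 0.361, 0.318 and 0.227, and stayed in a narrow band across libraries in which either gene varied widely. *Spp1* per *Ibsp* was 0.349, 0.693 and 0.401 in control and 4.58, 1.51 and 2.47 in cKO libraries, again with no overlap.

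Replicate 1 of the control group was the lowest of that group for *Dspp*, *Dmp1*, *Bglap* and *Bglap2* and highest for *Ibsp*. *Col1a1* was lowest in the same library, at 2062 CPM against 12960 and 8374 CPM in the other two. Leaving it out moved the log2 fold change of *Dmp1* from −1.51 to −2.01 and that of *Bglap* from −1.32 to −1.82, and neither passed the criterion. Leaving out replicate 3 of the cKO group gave the lowest value for *Dspp*, *Dmp1*, *Bglap* and *Bglap2*. No omission turned a direction.

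**Figure D5:**
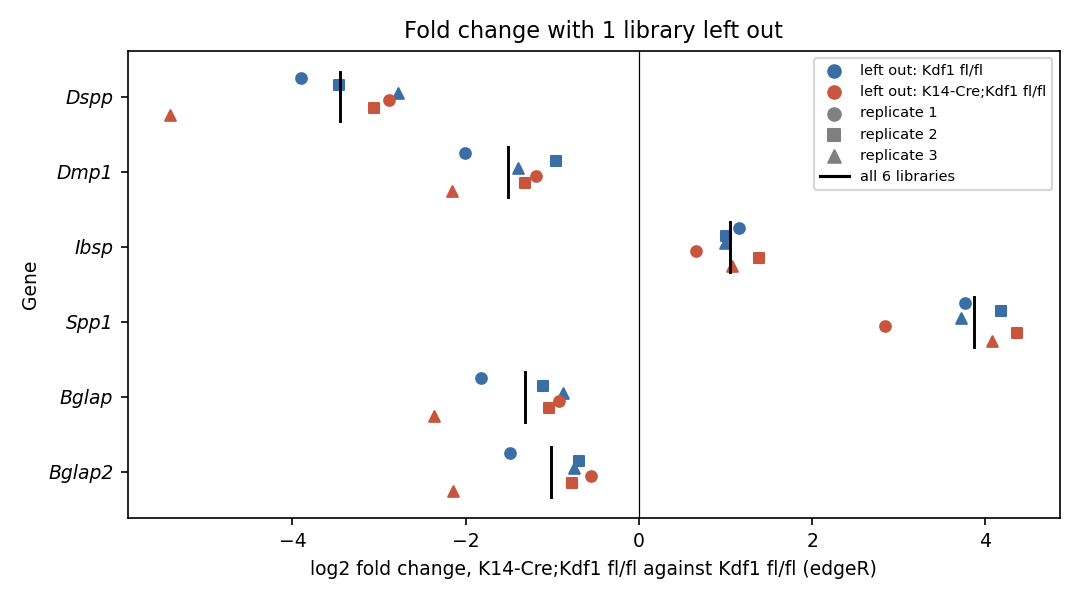
Each symbol gives edgeR's log2 fold change of a gene with 1 library left out, in the colour of the group and the shape of the replicate left out, and the black line gives the value with all 6 libraries. All values stay on 1 side of 0 for each gene, and *Dspp* ranges from −5.41 to −2.78.

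The enzymes that phosphorylate, cut, carboxylate or cross-link these proteins were followed as a list of 18 genes tested, of which 0 passed edgeR's criterion and 7 had an unadjusted p no higher than 0.05, as 24.5% of all genes tested had. DESeq2 called 4 higher and 2 lower, as did edgeR with the replicate block, and the median log2 fold change was 0.13. Besides *Mmp20*, the largest differences were those of *Tgm2*, a transglutaminase that cross-links osteopontin, at 4.996 ± 1.97 and 66.0 ± 77.1 CPM (SD, n = 3, log2 fold change 3.72, SE 0.92, adjusted p = 0.0841 by edgeR and 0.041 with the replicate block), and of *Mmp9*, a gelatinase of osteoclasts, at 31.8 ± 15.4 and 338 ± 367 CPM (log2 fold change 3.41, SE 0.84, adjusted p = 0.0841 by edgeR and 0.0141 with the replicate block). *Mmp9* and *Ctsk* are also among the osteoclast markers, as is the receptor gene *Itgb3*. Among 11 receptors tested, 0 passed and 4 reached an unadjusted p of 0.05 or less, with a median of 0.23. DESeq2 called 2 and the replicate block 1 (*Itga8*, adjusted p = 0.0149 by edgeR with the block). For enzymes and receptors alike, the shares of all genes tested were 0.432% by edgeR and 24.5% at the unadjusted p. They were 6.94% by DESeq2 and 6.09% with the block. *Itgb3*, a subunit of the osteopontin receptor of osteoclasts, had 8.10, 6.36 and 6.25 CPM in control and 52.5, 10.3 and 10.7 CPM in cKO libraries. *Itga8*, which pairs with the widely used subunit gene *Itgb1*, had 3.27 ± 1.48 and 10.01 ± 3.997 CPM, and *Itgb1* itself 709 ± 20.7 and 831 ± 62.3 CPM (SD, n = 3).

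Among 14 genes of mineral ion, phosphate and pyrophosphate handling, 0 passed edgeR's criterion, 3 reached an unadjusted p of 0.05 or less, DESeq2 called 1 (*Mgp*) and the replicate block 0, with a median of −0.16. In the same order, the shares of all genes tested were 0.432%, 24.5%, 6.94% and 6.09%. *Alpl*, the alkaline phosphatase that breaks down pyrophosphate, had 772, 898 and 876 CPM in control and 426, 444 and 466 CPM in cKO libraries. The groups were far apart for their spread, with an adjusted p of 0.0498 by edgeR, where 0.545% of all genes tested were at 0.05 or less. However, the log2 fold change of −0.93 (SE 0.13) fell short of the fold criterion. *Mgp*, a calcification inhibitor related to osteocalcin, had 4.43 ± 1.17 and 31.5 ± 31.3 CPM (SD, n = 3, log2 fold change 2.83, SE 0.73). *Slc20a2*, a phosphate transporter gene, had 487.5 ± 56.2 and 331 ± 67.9 CPM (log2 fold change −0.56, SE 0.18).

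Among 23 genes tested for collagens and other matrix of dentin and bone, 0 passed edgeR's criterion, 7 reached an unadjusted p of 0.05 or less, and DESeq2 called 5 higher and 1 lower, with a median of 0.60. With the replicate block 5 passed, all higher. Of all genes tested, 0.432% passed by edgeR, 24.5% reached the unadjusted p, 6.94% passed by DESeq2 and 6.09% with the block. *Postn*, the gene of periostin, had 43.0, 58.9 and 37.4 CPM in control and 743, 329 and 116 CPM in cKO libraries (log2 fold change 3.09, SE 0.63). Its adjusted p was 0.0674 by edgeR, 0.028 by edgeR with the replicate block and 7.59e-07 by DESeq2. *Ogn*, *Thbs1* and *Col3a1* had log2 fold changes of 3.32 (SE 0.75), 2.98 (SE 0.56) and 2.32 (SE 0.66), with an adjusted p of 0.0215, 0.00504 and 0.0324 by edgeR with the replicate block and 0.0734, 0.0637 and 0.105 without it. All of them were highest in replicate 1 of the cKO group, as was *Spp1*.

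Of 23 transcription factors and signals of odontoblasts and osteoblasts, 2 passed edgeR's criterion and both rose. With the replicate block 5 passed on the higher and 1 on the lower side, and DESeq2 called 4, all higher. An unadjusted p of 0.05 or less in edgeR was reached by 6 of the 23, and the median log2 fold change was 0.17. The shares of all genes tested were 0.432% by edgeR, 24.5% at the unadjusted p, 6.09% with the block and 6.94% by DESeq2. *Twist1*, a factor of mesenchyme known to hold back *Runx2*, had 11.6 ± 4.28 and 54.5 ± 18.6 CPM (SD, n = 3, log2 fold change 2.23, SE 0.33, adjusted p = 0.0498 by edgeR). *Lef1*, which acts in Wnt signalling in both tooth layers, had 18.1 ± 1.89 and 44.7 ± 8.04 CPM (log2 fold change 1.30, SE 0.18, adjusted p = 0.0498 by edgeR). Both adjusted p values lay just under the threshold, and neither gene passed with DESeq2's size factors in edgeR or by limma-voom. *Twist1* and *Msx1* are also among the papilla and odontoblast markers. *Runx2* had 50.5, 64.1 and 40.6 CPM in control and 247, 122 and 111.6 CPM in cKO libraries, a difference of 1.63 on the log2 scale (SE 0.34). Its adjusted p was 0.0674 by edgeR, 0.0241 with the replicate block and 9.93e-05 by DESeq2. The osteoblast factor gene *Sp7* overlapped, with a log2 fold change of −0.10 (SE 0.39) that was 0.015 with the replicate block. *Msx1* differed by 1.49 on the log2 scale (SE 0.41), with an adjusted p of 0.0988 by edgeR, 0.0387 with the replicate block and 0.0044 by DESeq2. The summed level of the 12 bone cell markers overlapped between the groups, at 3070 to 14490 and 5462 to 8013 CPM. Most of it came from *Col1a1*, which alone had 2062 to 12960 and 4368 to 7036 CPM. *Sost*, a marker of osteocytes, stayed at or below 0.442 CPM. Of the 11 bone cell markers tested, 0 passed edgeR's criterion, 2 reached an unadjusted p of 0.05 or less, 1 passed by DESeq2 and 2 with the replicate block. The same held for 0.432%, 24.5%, 6.94% and 6.09% of all genes tested.

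Of the remaining marker lists, 9 endothelium markers summed to 303 to 383 CPM in control and 352 to 1025 CPM in cKO libraries, highest in replicate 1 of the latter, and 0 of 9 passed edgeR's criterion, 5 reached an unadjusted p of 0.05 or less, 2 passed by DESeq2 and 0 with the replicate block. All 9 had a higher mean in cKO mice, with a median log2 fold change of 0.93. In 4 every cKO library lay above every control library, as for 14.5% of all genes tested. The 9 cartilage markers summed to 92.8 to 103.7 and 74.5 to 91.0 CPM, with *Matn1* and *Col10a1* at or below 0.0606 and 0.251 CPM. Of 3 tested, 0 passed edgeR's criterion and 3 reached an unadjusted p of 0.05 or less. *Acan*, at 0.369 ± 0.274 and 3.51 ± 2.94 CPM (SD, n = 3, log2 fold change 3.22, SE 0.83), and *Col2a1*, at 21.9 ± 1.75 and 30.5 ± 1.16 CPM, were higher in every cKO library, against the lower sum. *Sox9*, the other marker tested, was lower in every cKO library and ran from 34.9 to 78.1 CPM over all libraries. Of all genes tested, 14.5% were higher and 16.2% lower in this way. By DESeq2 and with the replicate block 1 of 3 passed, *Acan* on the higher side. For the endothelium and cartilage lists alike, the shares of all genes tested were 0.432% by edgeR and 24.5% at the unadjusted p. They were 6.94% by DESeq2 and 6.09% with the block. Of the papilla and odontoblast markers, *Prrx1* had 21.9, 40.3 and 15.5 CPM in control and 266, 116 and 85.96 CPM in cKO libraries. Of the 16 genes in this list, 12 were higher and 4 lower on the mean, with a median log2 fold change of 1.49. In 8 of them every cKO library lay above every control library and in 0 below, as for 14.5% and 16.2% of all genes tested. On the higher side 1 passed edgeR's criterion, 8 by DESeq2 and 8 with the replicate block, where 0.142%, 5.05% and 4.16% of all genes tested did. On the lower side 0 passed, where 0.29%, 1.88% and 1.92% of all genes tested did. The part of these cells in the levels of the matrix genes was not tested.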

How the data were processed

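RNA-seq libraries of the laser-captured IEE of the MM1 at E18.5 were compared, 3 of the control group (*Kdf1 fl/fl*) and 3 of the cKO group (*K14-Cre;Kdf1 fl/fl*). The 7 genes, the pathway and marker lists and the tests were chosen with earlier results of these data known. The estimated counts deposited by the authors are reads assigned to each gene, not normalised, and between 10.9% and 11.5% of them per library have a fractional part. The TPM values deposited by the authors are scaled by length to an equal total. The deposited FPKM values of the authors and their group mean columns were not used. The submitters' processing notes list BWA 0.7.12, Picard 2.6.0 and StringTie. Their roles and the genome build are not given in the sources used here.

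Counts were rounded, filtered with filterByExpr and scaled by TMM in R 4.3.3 with edgeR 4.0.16, and compared by a robust quasi-likelihood test (two-sided) with Benjamini-Hochberg adjustment over all 14131 genes tested. CPM used TMM-scaled library sizes. No library was a duplicate, since chi-square per degree of freedom between libraries of 1 group was 36.0 to 76.7, and the biological coefficient of variation was 25.4%. Deviations from the group means correlated at 0.135, 0.324 and 0.499 between libraries of the same replicate number. All exceeded 0.1, so the numbers were read as pairs, although replicate 1 of the cKO group correlated at 0.144 with replicate 2 of the control group. The sources do not state a pairing, and the replicate block is given where it changes a call or a count. Because the pairing was read from the same values that the block then fits, its p values may be too small.

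The alternatives were DESeq2 1.42.0, other scalings and filters, limma 3.58.1 (voom, and log2 TPM with pseudocounts of 1 and 0.1), the block, omission of each library and summed osteocalcin genes. The sum of *Bglap* and *Bglap2* alone was added after the data were seen. Named are all 7 genes, *Bglap3* and *Kdf1*. From each pathway list, up to 4 genes past the criterion were named, filled with the largest non-overlapping differences of at least 5 CPM. The first 2 genes of each marker list and the 3 genes most like each member (Pearson r of log2 CPM, prior count 2, mean of at least 5 CPM) could be named too. Other genes were chosen after their values were seen. Identity was computed with Biopython 1.88. The scripts were tested on simulated data.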

Additional observations from a re-analysis of the deposited data

How the results depend on the processing

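Each of the 6 genes kept its direction in every alternative run, and 96 of 100 values per gene and alternative kept their side of the criterion, which was to fall short of it. Very few of all genes tested passed in several of these alternatives, so this agreement says little about stability. The 100 values count each fit of summed osteocalcin genes under both *Bglap* and *Bglap2*. Over all alternatives the log2 fold change ran from −5.41 to −2.78 for *Dspp* (adjusted p 0.00957 to 0.393), −2.16 to −0.96 for *Dmp1* (0.181 to 0.541), 0.66 to 1.39 for *Ibsp* (0.0262 to 0.382), 2.84 to 4.37 for *Spp1* (0.000162 to 0.277), −2.36 to −0.88 for *Bglap* (0.137 to 0.707) and −2.15 to −0.55 for *Bglap2* (0.107 to 0.761). For each gene the lowest and the highest of these log2 fold changes came from leaving out 1 library. DESeq2 brought *Dspp* (−3.44), *Ibsp* (1.07) and *Spp1* (3.9) past the criterion and the replicate block *Dspp* (−4.18). The block changed no other call among the 6 genes. Of these genes 0 passed by edgeR, 3 by DESeq2, 1 with the block, 3 at an unadjusted p of at most 0.05 and 0 in each fit with 1 library left out.

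Counts over lists changed more. Of the enzymes, 0 passed by edgeR, 6 by DESeq2, 6 with the block and 0 to 2 with 1 library left out. Of the receptors these numbers were 0, 2, 1 and 0 to 1, and of the collagens and other matrix 0, 6, 5 and 0 to 3. Of the mineral ion genes they were 0, 1, 0 and 0 in each. In all 3 of the lists with a higher count it came without replicate 3 of the cKO group. The 2 transcription factors and signals became 4 by DESeq2, 6 with the block, 1 on log2(TPM + 0.1), 0 to 3 with 1 library left out, and 0 with DESeq2's size factors in edgeR, library size alone, at least 10 counts in every library, limma-voom and log2(TPM + 1). Of all genes, 61 passed by edgeR, 980 by DESeq2, 860 with the block, 7 with DESeq2's size factors, 9 with library size alone, 103 without a filter, 6 with at least 10 counts in every library, 6 by limma-voom and 16 on log2(TPM + 1). With 1 library left out the number ran from 1 to 465, the latter without replicate 3 of the cKO group. The causes were not tested. The median log2 fold change of all genes stayed between −0.02 and 0.05. Without a filter *Mepe* had a log2 fold change of 4.90 (edgeR, adjusted p = 0.168), which depends on the prior count. All 3 osteocalcin genes summed gave −1.21 (SE 0.86, adjusted p = 0.423 by edgeR).

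The p values rest on the spread between 3 libraries a group, with estimates of spread that also draw on the other genes. With the replicate block they rest on the spread left after the presumed pairs are fitted. Depth was no limit for the 6 genes tested, which had 39 or more counts in every library, but it was for *Mepe*.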
